A study of Glycine max with 22 samples.

Results

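SEOS is a soybean (Glycine max) gene of the sieve element occlusion (SEO) family, and its transcript was followed in mature leaves of plants that had lost their buds and of untreated plants. On the Affymetrix Soybean GeneChip, it is 1 of 6022 soybean genes named by a single symbol, and 1 of 37593 soybean probe sets stands for it. A probe set is a group of short probes whose summarised fluorescence, in arbitrary array units, stands for 1 transcript or a few closely related ones. The gene was picked with its signal on these arrays already known, because it was high after bud removal and during regrowth. Its levels and differences are therefore a description, given with their errors and without a test.

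SEO genes encode the structural phloem proteins (P-proteins) of sieve elements, the living conduits through which leaves export sugar. In legumes some of these proteins assemble into forisomes, contractile bodies that swell when calcium enters the cell and plug the sieve tube. Plugging of this kind is best known after wounding, together with the slower deposition of callose, which limits the loss of phloem sap.

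Mature leaves were sampled from 7 groups of chamber-grown plants on 22 arrays. In treated plants every axillary and terminal bud was taken off each day from a plant age of 30 days, for 15 days, and the shoots then regrew for 15 days. The treated groups were D15 (end of bud removal, age 45 days, n = 3), R20 (5 days of regrowth, age 50 days, n = 3) and R30 (15 days of regrowth, age 60 days, n = 3). The untreated groups were C15, C20 and C30 at the same ages (n = 3 each) and C0 at the start (age 30 days, n = 4). The labels name no cultivar, transgene or mutant for any group. They do not say that replicates came from separate plants, so every standard error and p-value measures the spread between these samples. The effect of bud removal on leaf gene expression was the question of the series.

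A signal was read against a floor set on each array by 23350 probe sets of an oomycete and a nematode, and 32776 soybean probe sets above it on at least 3 arrays were tested. All 6 leaf mesophyll marker genes measured (light-harvesting and Rubisco activase genes) were above the floor on all 22 arrays, and none of 7 seed storage genes was above it on more than 4. R20 replicate 3 stood apart: its actin 3′ to 5′ signal ratio was 136, against 2.29 to 8.37 on the other 21 arrays, and 60.3% of its soybean probe sets exceeded the floor, against 71.4% to 78.7%. The C20 and R20 arrays also had a higher ratio of the spiked control bioC to bioB (2.39 to 2.89) than the other arrays (0.948 to 1.20).

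SEOS was above the floor on all 22 arrays, and its lowest signal was 12.5 times the floor of its array. In the 9 treated leaves its signal ran from 7061 to 18340.5, with a median of 10286. In the 13 untreated leaves it ran from 222 to 5084, with a median of 1115. No untreated array reached the lowest treated one, although the margin was narrow: the lowest treated signal was 1.39 times the highest untreated signal and 2.35 times the second highest. The treated arrays spanned a 2.60-fold range and the untreated arrays a 22.9-fold range, so untreated leaves varied more among themselves. In whole-leaf RNA, fewer cells of a type and less RNA per cell cannot be told apart.

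At the start of the time course the C0 arrays gave SEOS signals of 1181, 448, 3007 and 1897. Within this group the highest was 6.71 times the lowest. The C15 arrays gave 5084, 514 and 1704, a 9.89-fold range and the widest of any group, with replicate 1 far above the rest. After 15 days of bud removal the D15 arrays gave 7061, 10866 and 14091. All 3 lay above the 3 C15 arrays, and C15 replicate 1 came closest to them.

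After 5 days of regrowth the R20 arrays gave 9543, 11583 and 18340.5, where the last was the array with the high actin ratio. Untreated leaves of that age (C20) gave 650, 1115 and 1874. The groups did not overlap, with the lowest R20 signal 5.09 times the highest C20 signal. The R30 arrays gave 9574, 10286 and 10138, a 1.07-fold range and the narrowest of any group. The C30 arrays gave 410, 612 and 222. Outside C30 only C0 replicate 2 and C15 replicate 2 were below the highest of these. The gap was widest at this age, with the lowest R30 signal 15.6 times the highest C30 signal.

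**Figure D1:**
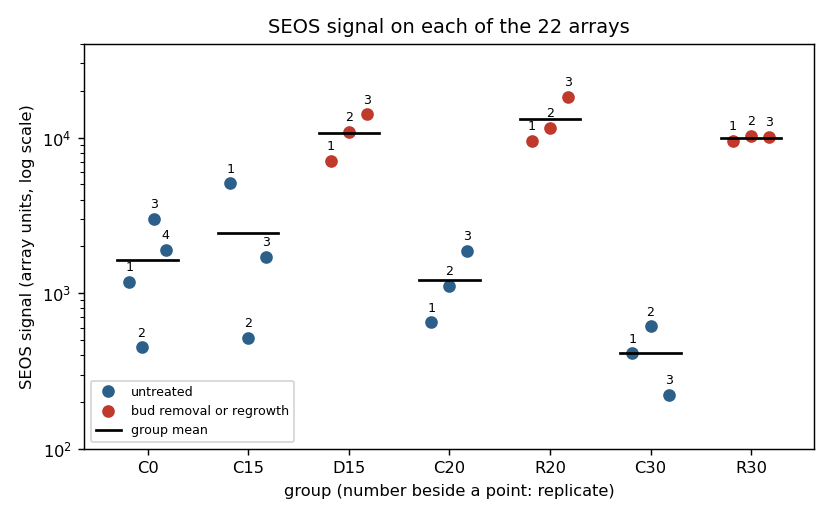
SEOS signal (array units, log scale) on each of the 22 arrays by group, with the replicate number beside each point and a line at the group mean. The 9 treated arrays (red) lie between 7061 and 18340.5, all above the 13 untreated arrays (blue), of which C15 replicate 1 at 5084 is the highest.

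As group means, SEOS signal was 10673 ± 3519 in D15, 13155 ± 4605 in R20 and 9999 ± 376 in R30 (SD, n = 3 each). It was 1633 ± 1090 in C0 (SD, n = 4), and 2434 ± 2371 in C15, 1213 ± 618 in C20 and 415 ± 195 in C30 (SD, n = 3 each). Ordered by mean log2 signal the groups ran R20, D15, R30, C15, C0, C20 and C30. The 3 treated groups overlapped one another, as did C15, C0 and C20. Neighbours in the order that did not overlap were R30 and C15, and C20 and C30, where the lowest C20 signal of 650 was close to the highest C30 signal of 612.

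At the end of bud removal SEOS was 2.64 ± 0.68 higher than in same-age controls on the log2(signal + 1) scale (SE from the fit over all groups), which is 6.23-fold. Of the 32776 probe sets tested, 314 had a larger difference in the same direction. The size rested on single C15 arrays: it was 3.45 (10.95-fold) without C15 replicate 1 and 1.80 (3.49-fold) without C15 replicate 2. At 5 days of regrowth the difference was 3.51 ± 0.68 (11.4-fold), exceeded by 328 probe sets, and it was 3.25 (9.49-fold) without R20 replicate 3. At 15 days of regrowth it was 4.71 ± 0.68 (26.1-fold), exceeded by 103 probe sets.

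The difference from same-age controls was thus numerically larger at each later age, by 2.07 ± 0.96 on the log2 scale from D15 to R30. Between treated groups the differences were smaller than the errors of the fit: R20 minus D15 was 0.30 ± 0.68 (with same-numbered arrays as pairs, 0.30 ± 0.11 and positive in all 3) and R30 minus D15 was -0.04 ± 0.68. Among untreated groups, C15 minus C0 was 0.32 ± 0.64 and C20 minus C0 was -0.25 ± 0.64, both smaller than their errors, whereas C30 minus C0 was -1.78 ± 0.64, a 3.45-fold lower level. C30 was also lower than C15 by a log2 difference of -2.10 ± 0.68 and lower than C20 by -1.53 ± 0.68. After 15 days of regrowth the treated leaves had thus not returned to the SEOS level of untreated leaves of their age.

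**Figure D2:**
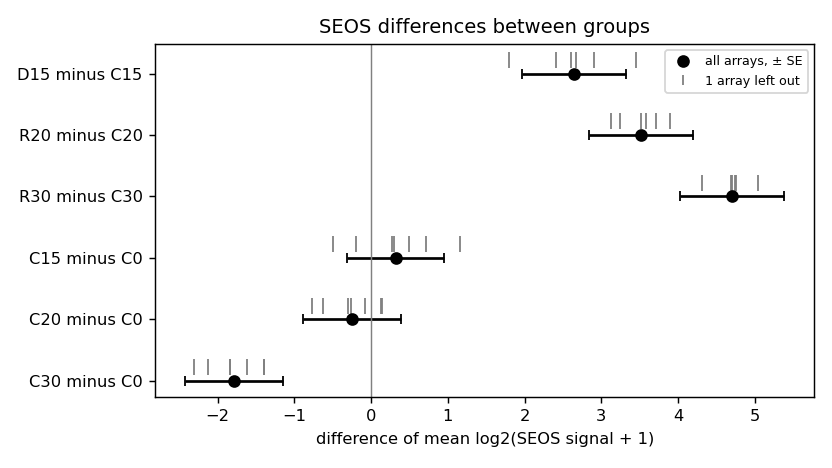
Differences of mean log2(SEOS signal + 1) between groups (points, with the standard error of the fit over all groups) and the same differences with each array of the 2 groups left out in turn (grey ticks). The 3 treated groups lie 2.64 to 4.71 above their controls. Their arrays do not overlap those of their controls, so leaving 1 out could not reverse that direction. C15 minus C0 and C20 minus C0 change sign when certain single arrays are left out.

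Other measured facts moved with SEOS, and their part in its differences was not tested. VSPA and VSPB encode vegetative storage proteins, which accumulate in the paraveinal mesophyll beside the veins. Their summed signal was 17844 to 22483 in D15, 18733 to 24362 in R20 and 15225 to 21503 in R30. In untreated leaves the sum was 136 to 13045 in C0, 62.4 to 4994 in C15, 37.8 to 60.8 in C20 and 17.6 to 70.8 in C30. All 9 treated arrays were thus high for the storage proteins as for SEOS, but C0 replicates 1 to 3 had VSPA signals of 8459, 7322 and 6889 while SEOS stood at 1181, 448 and 3007 there. The summed signal of the 6 leaf mesophyll markers also differed with group, at 27287 to 28380 in R20 against 5409 to 12971 in C20 and 22064 to 28295 in R30 against 8785 to 21535 in C30. In D15 and C15 it overlapped, at 24229 to 33559 and 14809 to 35366. Much of the sum came from the light-harvesting genes CAB3 and LHCP, with means of 13345 and 9254 in R20 against 4509 and 501 in C20. The Rubisco activase genes had log2 differences of 0.30 to 0.73 in R20 against C20, so the markers did not differ alike. The highest soybean signal on any treated array lay between 10601 and 23806, beside SEOS signals of 7061 to 18340.5, and whether its probes were near saturation was not tested.

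RefSeq names 19 soybean genes of the SEO family, of which SEOS and 7 others had a probe set with a single symbol here. Among the genes that lie next to SEOS in RefSeq's Glycine_max_v4.0 annotation, SEOR is the adjacent gene on one side and SEOU is 4 genes away on the other. Neither had a single-symbol probe set, and probe sets with several symbols or none were not searched for them. Whether their transcripts, or those of other family members without such a probe set, bind to the SEOS probes was not tested. The only gene within 10 on either side with a single-symbol probe set is LOC100527862, 2 genes from SEOS. Its signal was 1633 to 2422 in R20 against 835 to 1283 in C20, and 694 to 2422 over all arrays, a far narrower span than that of SEOS. This neighbour was looked at for its position and received no test.

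The 7 other measured SEO genes (10 probe sets) were at or near the floor on most arrays, whereas SEOS was above it on all. SEOE was above the floor on 14 of 22 arrays by its brighter probe set, SEOC and SEO-F3 on 11 each, SEOA on 9, SEOF on 8, SEOM on 2 and SEOP on 1. The number of these 7 genes above the floor on any array was 6 in C0, 5 in C15, 4 in D15, 2 in C20, 5 in R20, 2 in C30 and 5 in R30. Of the 7, 5 passed the filter on low signal and were tested, and SEOM and SEOP did not pass it.

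In C0 the family was brightest on the arrays where SEOS was not. SEOF gave 402, 130, 37.7 and 11.03 on C0 replicates 1 to 4, and SEOA gave 330, 76.2, 42.9 and 17.0. SEOC gave 132, 73.5, 35.9 and 8.72. All 3 genes were highest on replicate 1 and next highest on replicate 2, where SEOS gave 1181 and 448, below its signals on replicates 3 and 4. SEO-F3 gave 155 and 39.7 on those replicates and was below the floor on the other two. SUT1, which encodes a sucrose transporter that loads phloem, gave 1029 and 580 there against 141 and 246, so it too was brightest where these family members were. What set replicates 1 and 2 apart was not tested.

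**Figure D3:**
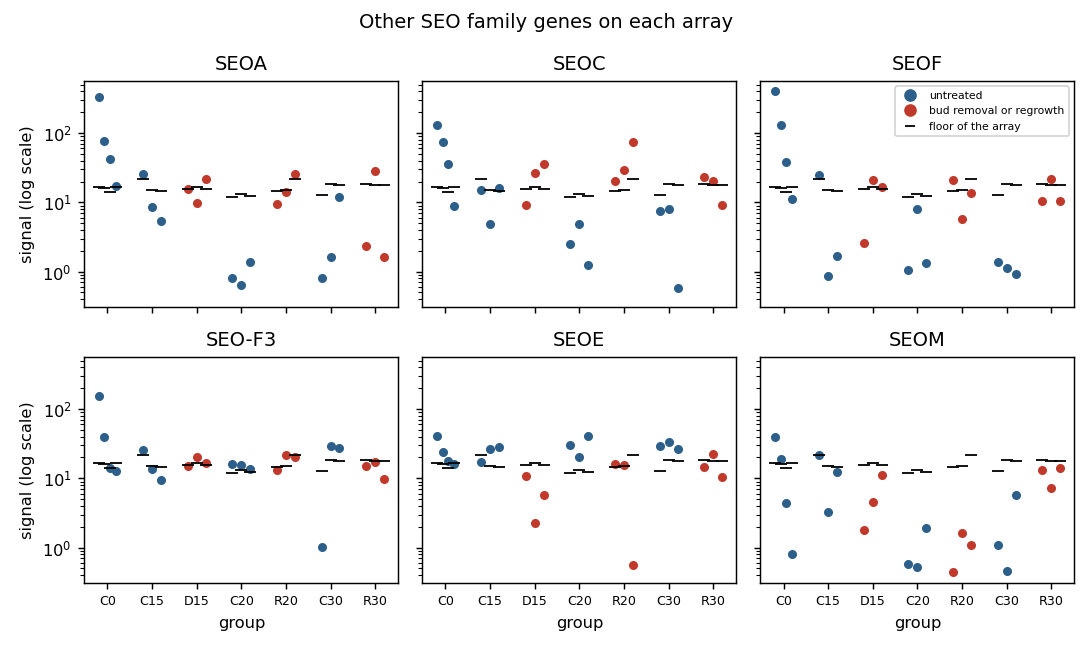
Signal (array units, log scale) of 6 other SEO genes on each array by group, with the floor of each array as a dash. SEOA, SEOC and SEOF are brightest on C0 replicate 1 (330, 132 and 402) and next brightest on replicate 2, except that SEOC reaches 74.5 on R20 replicate 3, and SEOP, above the floor on 1 array only, is not drawn.

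SEOS was set beside a list of phloem genes drawn up by role: P-proteins, sugar loading, Dof transcription factors named in connection with phloem identity, and calcium sensors and calcium-dependent kinases, since calcium triggers sieve tube plugging. It held 28 genes besides SEOS, of which 25 were tested. The searches for callose synthesis, amino acid transport and phloem-mobile signals found no gene among the single-symbol probe sets. They used a few symbols, such as CALS and GSL for callose and AAP for amino acid permeases. Numbered callose symbols and other amino acid transporters were not searched for, so their absence is not shown. A gene was called when its limma p-value, adjusted by the Benjamini-Hochberg method over all 32776 probe sets, was under 0.05.

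At the end of bud removal none of the 25 genes was called by limma (background 0.146% of all probe sets called higher and 0.0793% lower), and 2 higher and 2 lower had an unadjusted p under 0.05, as had 11.9% of all probe sets. Their median log2 difference was 0.21 beside -0.04 over all probe sets, with 15 fitted higher and 10 lower. The P-protein genes had a median log2 difference of 0.45. Lower at an unadjusted p under 0.05 were SEOE (-1.95 ± 0.72) and Dof6 (-1.20 ± 0.50). Neither was called (limma adjusted p = 0.262 and 0.333). SEOE exceeded the floor on no D15 array, and its other probe set, above the floor in neither group, was fitted higher (1.20 ± 0.68). SCAM-4, a divergent calmodulin, had signals of 242 ± 21.0 in D15 against 81.0 ± 66.9 in C15 (SD, n = 3 each), and SS, a sucrose synthase that splits sucrose in the cytosol, had 465 ± 201 against 201 ± 212. Neither was called with all arrays (limma adjusted p = 0.212 for SCAM-4 and 0.340 for SS), and both were called higher once C15 replicate 1 was left out. Leaving that array out also raised calls over all probe sets, from 48 to 663 higher and from 26 to 472 lower. SUT1 had 280 ± 145 against 181 ± 92.6, with overlapping arrays.

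At 5 days of regrowth 7 of the 25 genes were called higher in R20 than in C20 and none lower, with all arrays in the fit. The background was 6.64% of all probe sets called higher and 11.2% lower. The median log2 difference of the 25 genes was 0.70 beside -0.27 over all probe sets. Among P-proteins, SEOC signals were 20.3, 28.9 and 74.5 in R20 and 2.48, 4.85 and 1.26 in C20, where none exceeded the floor. That is at least 2.72-fold (limma adjusted p = 0.0159), a bound set against the floor of the C20 arrays. SEOA exceeded the floor on 1 of 3 R20 arrays and none of C20, at least 1.22-fold higher (limma adjusted p = 0.0393), so its signal was barely measurable in either group. SEOE had a mean of 10.9 in R20 against 30.4 in C20 and was not called (limma adjusted p = 0.061). SEOF and SEO-F3 were not called either, with log2 differences of 1.89 ± 1.11 and 0.23 ± 0.88.

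Of 8 calcium genes 4 were called higher in R20 than in C20, all of them calmodulins, the small calcium-binding sensors. SCAM-1 signal was 3995 ± 1236 in R20 against 1395 ± 201 in C20 (SD, n = 3 each), a log2 difference of 1.48 ± 0.41 (SE). SCAM-3 signal was 4401 ± 1181 against 1746 ± 591, a difference of 1.35 ± 0.33. SCAM-4 signal was 280 ± 25.8 against 53.2 ± 17.5, a difference of 2.43 ± 0.64 with no overlap of arrays. SCAM-5 was above the floor on all R20 arrays and on no C20 array, at least 1.98-fold higher. The limma adjusted p-values of these 4 lay between 0.0111 and 0.0401. Among other tested probe sets of these genes, those called higher were of SCAM-4 (limma adjusted p = 0.00591) and SCAM-3 (0.0441). A further SCAM-3 probe set (0.0602) and the other of SCAM-1 (0.0652) were not called. The probe sets that stood for SCAM-3 and SCAM-4 are of a type with probes shared among related transcripts, so their signals may mix family members. SCAM-2, the remaining calmodulin, had a difference of 0.15 ± 0.32 and was not called.

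Of 9 sugar-loading genes SWEET42, which encodes a member of the SWEET family of sugar exporters, was called higher. Its signal was 565 ± 30.0 in R20 against 322 ± 52.4 in C20 (SD, n = 3 each), a log2 difference of 0.82 ± 0.25 (limma adjusted p = 0.0317). SUT1 had a difference of 1.13 ± 0.61 and was not called. Of the 3 Dof genes none was called, and DOF10 had the smallest p, with a mean of 41.4 in C20 against 9.08, below the floor, in R20 (limma adjusted p = 0.107). All 7 calls were lost when R20 replicate 3 was left out, 4 genes stayed called without C20 replicate 1 and 1 (SEOC) without C20 replicate 2. In that order, calls over all probe sets fell from 5843 to 3016, 2603 and 1552. Without R20 replicate 3 the 7 genes had log2 differences of 0.84 to 2.82. Their limma adjusted p-values were then 0.05003 (SCAM-4) to 0.133 (SCAM-5). SEOA was lost without C20 replicate 3, SEOA and SWEET42 without R20 replicate 2, and SCAM-5 without R20 replicate 1 or R30 replicate 2. SEOE was called lower without R20 replicate 1 or R20 replicate 2. When C0 replicate 4 and C15 replicate 1 were left out together with R20 replicate 3, an alternative chosen after seeing the data, 5 of the 7 were called. SEOS itself kept a 9.49-fold difference without R20 replicate 3.

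**Figure D4:**
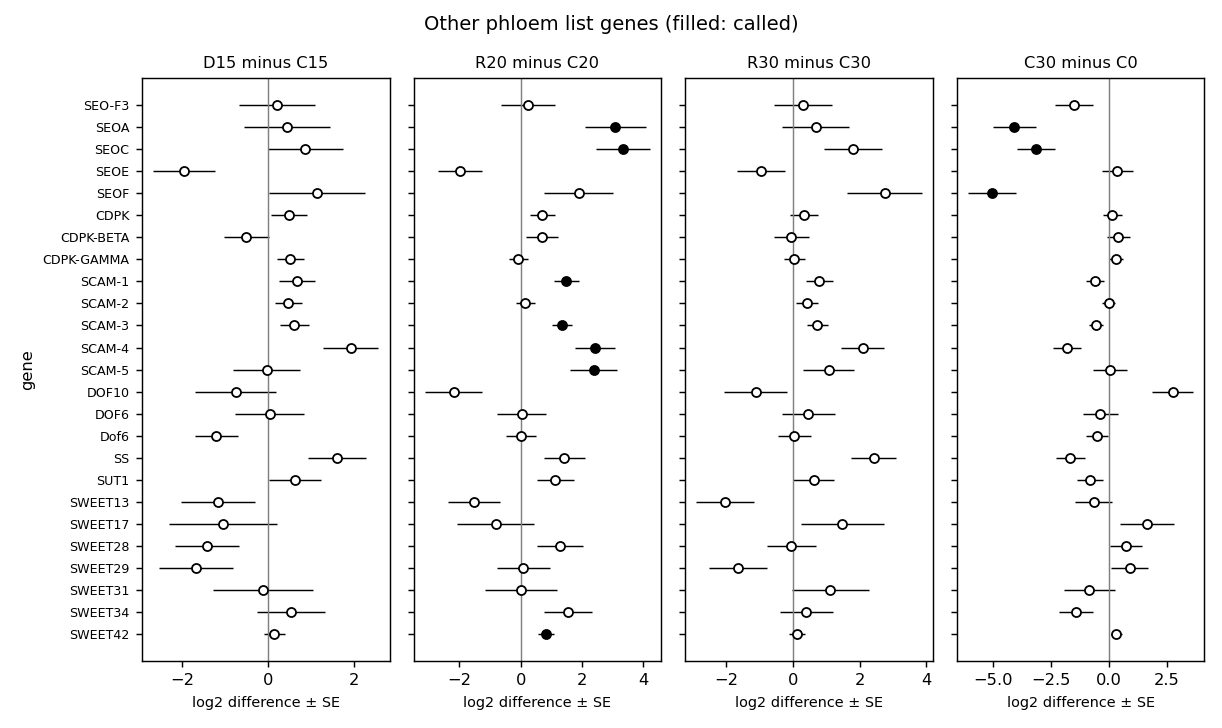
Log2 differences (points, with the standard error of the fit) of the 25 other phloem list genes tested, in the 3 same-age comparisons and in C30 minus C0, with filled points for genes called at an adjusted p under 0.05. Filled points appear for 7 genes in R20 minus C20 and for SEOA, SEOC and SEOF in C30 minus C0.

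At 15 days of regrowth, where the SEOS difference was largest, none of the 25 genes was called by limma (background 1.82% called higher and 0.403% lower), and 4 higher and 1 lower had an unadjusted p under 0.05, as had 14.4% of all probe sets. Their median log2 difference was 0.42 beside 0.05 over all probe sets. SS had signals of 468 ± 108 in R30 against 89.8 ± 34.9 in C30 (SD, n = 3 each), a log2 difference of 2.43 ± 0.67 that fell short of the threshold (limma adjusted p = 0.068). SCAM-4 had 172 ± 44.5 against 45.3 ± 29.0 by its brighter probe set and was not called, while its other probe set was called higher (2.61 ± 0.58, limma adjusted p = 0.0211). The brighter one was called without C30 replicate 1, SS without C15 replicate 1, and both without C0 replicate 4 or with replicate number as a block. In that order, calls over all probe sets were 1132, 959, 843 and 1092, beside 729 in the main fit. Tests of whether any of the 25 differences changed between ages gave no call in 3 contrasts, with 2 unadjusted p-values under 0.05. No share over all probe sets was set beside these counts, so they are not read as particular to the list.

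In untreated leaves 3 of the 25 genes fell between C0 and C30 and none rose, against a background of 3.15% called lower and 1.2% higher. All 3 were P-protein genes: SEOF was at least 4.09-fold lower (limma adjusted p = 0.0109), SEOA at least 3.90-fold lower (0.0187) and SEOC at least 2.52-fold lower (0.0348), none of them above the floor in C30. The median log2 difference of the 5 P-protein genes was -3.14 beside 0.05 over all probe sets. These calls rested on C0 replicates 1 and 2: none of the 3 was called without replicate 1, SEOF alone without replicate 2, and none without both. Over all probe sets calls fell too, from 1426 to 351, 383 and 54 in that order. Without replicate 1 the fitted log2 differences were -4.20 for SEOF, -3.31 for SEOA and -2.60 for SEOC. SEOF alone also stayed called without C30 replicate 2, SEOA was lost without C30 replicate 1 and SEOC without C30 replicate 3. Without C0 replicate 4, 5 genes of the list were called, and 3023 of all probe sets. SEOS, at -1.78 ± 0.64 in the same comparison, was high on other C0 arrays than SEOF, SEOA and SEOC were.

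The genes with a pattern most like that of SEOS were sought among 1008 tested genes with an informative name, by Pearson's r of log2 signal over the 22 arrays. These arrays share their scaling and differ in RNA quality, and the measure is a description only. The median r was 0.06, and 27 genes had an r over 0.8. The highest belonged to LOX10 (0.94), LOX7 (0.93), SC514 (0.93) and LOX9 (0.91), all lipoxygenases, which oxidise polyunsaturated fatty acids. They were followed by SGT2 (0.91), GASA29 (0.89, of the gibberellin-regulated GASA family), GSTU59 (0.88, a glutathione S-transferase of the tau class) and SPK-1 (0.87, a protein kinase). The LOX7, LOX9, SC514 and SGT2 probe sets are of types designed with probes shared among related transcripts, so their signals may mix family members.

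LOX10, picked for its r over these same arrays, also varied with SEOS within the untreated and within the treated arrays. Its signals were 51.9, 256, 2094 and 579 in C0 and 1055, 68.8 and 483 in C15, with the highest of each group on the array where SEOS was highest too. In treated leaves it gave 3120, 5450 and 6019 in D15, 4872, 5760 and 8643 in R20 and 2181, 2827 and 4112 in R30. In C20 and C30 it stayed between 35.8 and 244. Its r with SEOS was 0.78 within the 13 untreated arrays and 0.76 within the 9 treated arrays. For LOX7 these values were 0.84 and 0.89. In R30, however, LOX10 was highest on replicate 3 and SEOS on replicate 2. Of the other most like genes, r within the treated arrays was 0.91 for LOX9, 0.82 for SC514 and 0.69 for GSTU59. It was 0.29 for SPK-1, -0.04 for SGT2 and -0.06 for GASA29.

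When group means were subtracted, the highest correlations with SEOS were those of N-56 (0.87), LOX7 (0.84), GASA29 (0.73) and LOX10 (0.73). N-56 was above the floor on only 3 arrays. VSPA and VSPB, which separated treated from same-age untreated leaves too, had an r with SEOS of 0.76 and 0.81 over all arrays but of 0.27 and 0.24 after subtraction of group means. Among phloem genes r was 0.72 for SCAM-4, 0.66 for SS, 0.46 for SEOC and 0.29 for SUT1.

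The genes least like SEOS were AOX1 (-0.86), the mitochondrial alternative oxidase, HPT1 (-0.84), which commits homogentisate to tocopherol synthesis, BCH3 (-0.81), a carotene hydroxylase, and HO1 (-0.80), a haem oxygenase of phytochrome chromophore synthesis. HPT1 signal was 158 ± 84.4 in D15, 185 ± 9.12 in R20 and 280 ± 222 in R30, and 4930 ± 1319 in C30 (SD, n = 3 each). It was 1137 ± 1188 in C0 (SD, n = 4), and 2273 ± 1737 in C15 and 3425 ± 767 in C20 (SD, n = 3 each). Its 3 lowest group means were those of the treated groups, and its highest was that of C30, where SEOS was lowest.

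**Figure D5:**
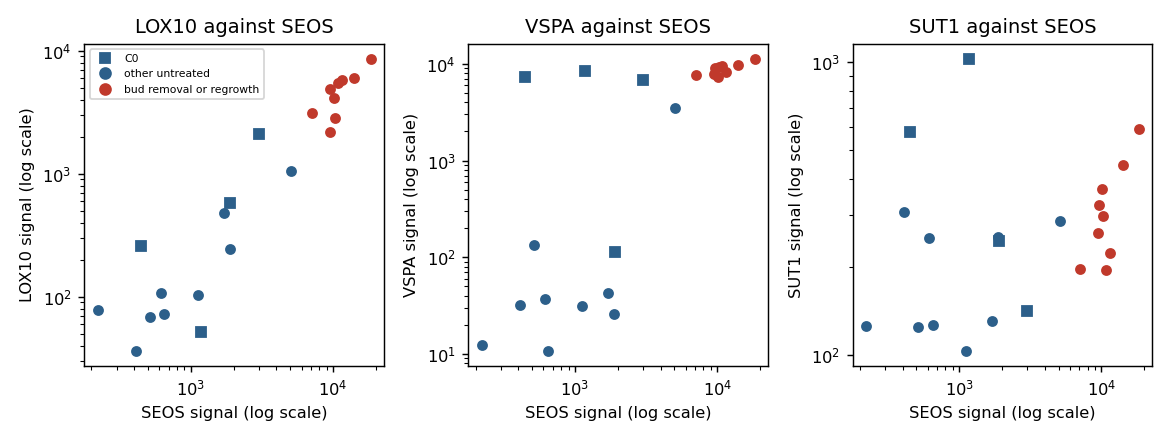
Signals (array units, log scales) of LOX10, VSPA and SUT1 against that of SEOS on the 22 arrays, with C0 arrays as squares, other untreated arrays as blue circles and treated arrays in red. LOX10 lies along a line with SEOS (r = 0.94 on the log2 scale), VSPA is high on 3 C0 arrays where SEOS is not, and SUT1 has an r of 0.29.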

How the data were processed

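Per the labels' protocols, biotin-labelled RNA of 22 leaf samples was hybridised to Affymetrix Soybean GeneChips. The table deposited by the authors holds 1 linear intensity per array for each of 61170 probe sets; the 2% trimmed mean was 125.009 to 125.015 on every array, so arrays had been scaled. Which software summarised the probes is not stated there. Each array's floor was the 95th percentile of its oomycete and nematode probe sets (11.8 to 22.1). Probe sets above it on at least 3 arrays were tested with limma 3.58.1 in R 4.3.3 on log2(intensity + 1), with 1 coefficient per group over all 22 arrays and a variance trend; Benjamini-Hochberg adjustment ran over 32776 probe sets. The added 1 shrinks the fold changes of dim genes, but differences that rest on signals below the floor depend on the pseudocount. For SEOA, R20 minus C20 was 3.09 with a pseudocount of 1 and 0.91 with 16. The fit was tested on simulated data.

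Of the soybean probe sets 8677 had 1 gene symbol, 370 several and 28546 none, and only the first were named. Where a gene had several probe sets, the one of highest mean stood for it. Signals of different probe sets were not read as relative transcript amounts. They were summed for VSPA with VSPB and for the mesophyll markers. They were also ranked to choose a gene's probe set, and those of SEOS were set beside the highest signal of an array. "At least" folds compare the brighter group with the higher of floor and signal on each array of the dimmer one. Named were SEOS, the other measured SEO genes, list members called in a same-age comparison or with the smallest p of their role, and the 8 most like and 4 least like genes, with 4 by within-group likeness. SCAM-2, SUT1, SCAM-4 at the ages where it was not called, VSPA, VSPB and LOC100527862 were added after their values were seen. Gene, list and tests were all chosen with earlier results of these data known.

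Replicate numbers were not treated as pairing the samples, because the labels do not tie the numbers to replicate time courses. Same-numbered arrays of different groups had correlations of their deviations from -0.322 to 0.470 (median 0.0547), over 0.1 in 26 of 63 pairs. With so few arrays per group, these values cannot exclude a pairing. Of the pairs of groups only D15 and R20 had all 3 over 0.1 (0.322, 0.105 and 0.364). The highest correlation between 2 arrays was 0.961, so none was taken for a repeat. Alternatives changed the pseudocount, scaling, filter, variance model, replicate block, samples in the fit and single arrays. Gene order was taken from RefSeq without printing coordinates, and no sequences are given because none were available here. The number of arrays limits precision.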

Additional observations from a re-analysis of the deposited data

How the results depend on the processing

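The SEOS differences D15 minus C15, R20 minus C20, R30 minus C30 and C30 minus C0 kept their direction under every alternative run. The same-age comparisons are between groups that did not overlap, so leaving out arrays could not reverse them. With 1 array left out these differences, in the order named, ranged over 1.80 to 3.45, 3.13 to 3.89, 4.32 to 5.05 and -2.30 to -1.39 on the log2 scale. C15 minus C0 ranged from -0.49 to 1.16 and C20 minus C0 from -0.77 to 0.14. The former turned to -0.20 without C0 replicate 2 and to -0.49 without C15 replicate 1, and the latter to 0.14 without C0 replicate 3 and to 0.13 without C20 replicate 1, so neither has a settled direction. Centring arrays on their medians moved the median difference of all probe sets in R20 against C20 from -0.27 to 0.20 and the calls from 2175 higher and 3668 lower to 3805 and 1707, and quantile normalization gave -0.09 with 2281 and 2400. SEOS R20 minus C20 was then 3.99 and 3.15. SEOS has a single probe set, so the alternative of its other probe sets gave no value.

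The replicate block left SEOS at 2.64, 3.51 and 4.71 in the 3 same-age comparisons, and at 0.49, -0.08 and -1.61 for C15, C20 and C30 minus C0. With the block, calls in the phloem list were 0 in D15 and 7 in R20 but 2 (SCAM-4 and SS) in R30 and 5 in C30 against C0. Over all probe sets, the block moved calls from 74 to 328 in D15 against C15 and from 5843 to 7031 in R20 against C20. Calls moved from 729 to 1092 in R30 against C30 and from 1426 to 3520 in C30 against C0. The pairing of D15 with R20 was tried after seeing the data.

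Phloem list counts were sensitive to single arrays of the 2 groups compared: 0 to 2 called in D15 against C15 (0 with all arrays), 0 to 7 in R20 (7), 0 to 1 in R30 (0) and 0 to 5 in C30 against C0 (3). Without C0 replicate 4, which is in neither group, R30 had 2. Over all probe sets, calls with single arrays of the 2 groups left out ranged over 1 to 1135 in D15 against C15. They ranged over 1552 to 6355 in R20, 190 to 1132 in R30 and 351 to 3023 in C30 against C0. Quantile normalization left 4 of the 7 calls in R20, without SEOA, SCAM-1 and SCAM-5, and a pseudocount of 16 removed SEOA and called SEOE lower. The fit to the R20 and C20 arrays alone kept 5, without SWEET42 and SCAM-5, as did the filter of 11 arrays, which SEOA and SCAM-5 did not pass. In R30 the fit to the 2 groups' arrays alone called 1 gene and counting every probe set of the list called 1. In C30 against C0, calls were 1 with a filter of 11 arrays, which SEOA and SEOF did not pass, 0 with only the 2 groups' arrays, and 0 without C0 replicates 1 and 2 together, an alternative added after seeing the data. Without C0 replicate 4, C15 replicate 1 and R20 replicate 3 together, also added then, R20 had 5 calls. By Spearman's rho 4 of the 8 genes most like SEOS were among the top 8, without R20 replicate 3 it was 7, and with quantile normalization 6. Causes of these shifts were not tested.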
